A study of Mus musculus with 6 samples.

Results

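The DNA methylation and Polycomb enzymes examined here are 10 of the 21240 genes of the count table, taken by their symbols: the maintenance pair Dnmt1 and Uhrf1, the de novo methyltransferases Dnmt3a and Dnmt3b, the 5-methylcytosine oxidases Tet1, Tet2 and Tet3, and the Polycomb repressive complex 2 (PRC2) genes Ezh1, Ezh2 and Suz12. All 10 were found once in the table, and 8 of them were abundant enough to be tested. Dnmt3b and Tet1 lay below the filter (at least 2 CPM, counts scaled by the size of the library, in 2 or more libraries) and are described by their counts. The libraries are stranded total RNA-seq of NMuMG, an unmodified epithelial line from the mouse mammary gland, in which the cytokine TGFβ1 starts an epithelial to mesenchymal transition. All cells first spent 6 h without serum and insulin. The group veh then received vehicle for 2 h, TGFb2h received TGFβ1 at 5 ng/ml for 2 h and TGFb12h received the same dose for 12 h, each as 2 biological replicates. The protocol gives the vehicle as HCl with BSA and the sample label as Tris-HCl with BSA. Vehicle was sampled at 2 h alone, so that the effect of 12 h of TGFβ1 and that of a longer time without serum cannot be told apart.

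DNA methylation is copied after replication by Dnmt1, which Uhrf1 brings to newly made, hemimethylated DNA, while Dnmt3a and Dnmt3b set new methyl marks and the Tet enzymes oxidise 5-methylcytosine as the first step of its removal. PRC2 places the repressive trimethyl mark on lysine 27 of histone H3 through its catalytic subunits Ezh2, typical of dividing cells, or Ezh1, typical of resting cells, and needs Suz12 as a scaffold. The table holds RNA alone, and neither methylation nor enzyme activity was measured.

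Total counts ranged from 14705886 to 23786993 per library, and 11080 genes were tested in 1 fit of all 6 libraries. At an adjusted p under 0.05 in the quasi-likelihood test of edgeR, 9.91% of these were called higher than in vehicle at 2 h and 5.25% lower. At 12 h these shares were 21.8% for higher and 21.5% for lower, and between 12 h and 2 h they were 15.2% and 18.9%. When counts were scaled by library totals in place of TMM factors, the share of called genes that were higher moved from 65.4% to 46.7% at 2 h and from 50.3% to 37.5% at 12 h, and the median log2FC of all genes moved to −0.12 and −0.11. All 5 TGFβ response markers (among them Smad7 and Skil) rose at both times, which goes with the labels. Of 9 epithelial markers, Cdh1, Krt8, Krt18, Krt19 and Ocln were expressed, while Epcam, Cldn3, Cldn7 and Esrp1 stayed under the filter. At 12 h, 6 of 7 mesenchymal markers were higher, and of the epithelial markers tested Krt8 and Krt18 were higher (log2FC = 1.63 and 1.52), Krt19 was lower (−1.95), and Cdh1 (−0.07) and Ocln (−0.52) did not pass. The 10 markers of other cell types together held 4.97 to 13.8 CPM per library, and 5 of them had at most 3 counts in every library. Most of this sum came from Krt14 (1.91 to 11.05 CPM) and Pdgfra (1.87 to 3.04 CPM). Cdh5, under the filter, had 1 and 2 counts in veh and 39 and 36 at 12 h.

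At 2 h a single gene of the 8 tested had changed: Dnmt3a rose, against 9.91% of all genes called higher, and none of the 8 was called lower, against 5.25% (2 at an unadjusted p under 0.05, Tet2 and Ezh1, and 1 with DESeq2). At 12 h Dnmt3a was still the only one higher, against 21.8%, and 3 of the 8 were lower, against 21.5%: Uhrf1, Tet2 and Dnmt1. From 2 h to 12 h Uhrf1 alone fell, against 18.9% of all genes. At an unadjusted p under 0.05, 5 genes fell, the others being Tet2, Ezh2, Dnmt1 and Dnmt3a, while DESeq2 called 3 and limma-voom 2. The same 5 passed when the replicate number was added to the edgeR fit (replicate block). Adjusted p was then 0.00323 for Dnmt1, 0.0190 for Dnmt3a, 0.0272 for Ezh2 and 0.0358 for Tet2. None rose, against 15.2% (0 also at an unadjusted p under 0.05 and with DESeq2 or limma-voom). The median log2FC of the 8 genes was −0.24 at 2 h and −0.35 at 12 h, where that of all genes tested was −0.01 and 0.02. The Ezh1, Ezh2, Suz12 and Tet3 values did not pass the test at either time.

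**Figure D1:**
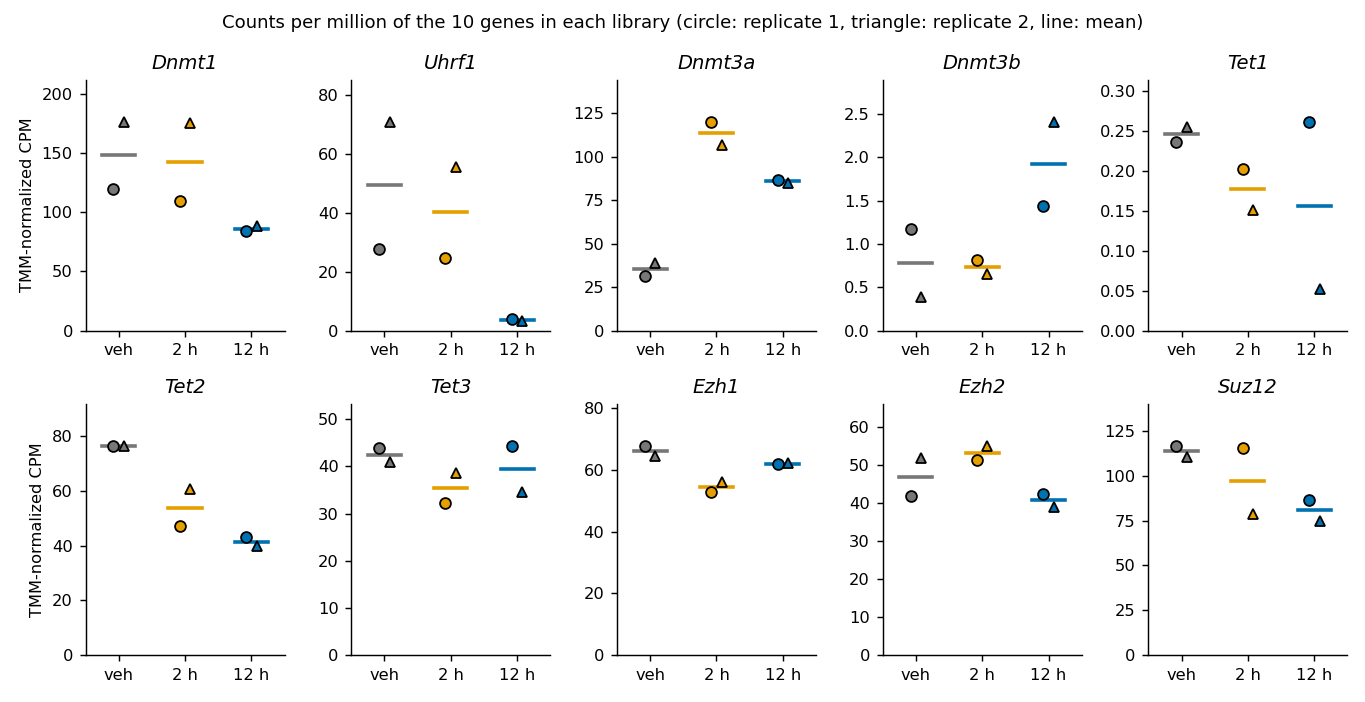
TMM-normalized CPM (vertical axis, starting at 0, with its own range in each panel) of each of the 10 genes in the veh, TGFb2h and TGFb12h libraries. Circles are replicate 1, triangles replicate 2 and lines the mean of both. Dnmt3a lies at 31.6 and 38.8 CPM in veh and at 85.1 CPM or above in all treated libraries, and Uhrf1 lies at 4.05 and 3.24 CPM at 12 h.

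Uhrf1 had the largest change of the 8 genes. Uhrf1 (Entrez 18140, mm9 chr17:56442744-56462909, + strand, protein coding, 18 exon blocks) encodes the adaptor that reads hemimethylated CpG and recruits Dnmt1. Its level was 27.6 and 71.0 CPM in veh, 24.6 and 55.7 CPM at 2 h, and 4.05 and 3.24 CPM at 12 h. The 12 h libraries lay below the other 4, whereas the 2 h and vehicle libraries overlapped. Against vehicle, log2FC was −0.29 ± 0.50 (SE) at 2 h (adjusted p = 0.740, quasi-likelihood test of edgeR, Benjamini-Hochberg adjusted) and −3.75 ± 0.59 at 12 h (adjusted p = 0.00283, n = 2 per group), a level 13.4-fold lower. The 95% interval of the 12 h value ran from −5.17 to −2.33. It was called in all 14 alternatives, and the fold rested on the vehicle libraries, being 7.53-fold without vehicle replicate 2 and 19.4-fold without vehicle replicate 1. From 2 h to 12 h Uhrf1 fell by 3.45 ± 0.59 on the log2 scale (adjusted p = 0.00564 in edgeR), a call that was lost when either 12 h library was left out (log2FC = −3.64, adjusted p = 0.0556 without replicate 1, and log2FC = −3.31, adjusted p = 0.0619 without replicate 2). In bulk RNA, fewer cells that express a gene and less of its RNA per cell cannot be told apart.

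Dnmt1 changed in the same direction and less. Dnmt1 (Entrez 13433, mm9 chr9:20711650-20757317, − strand, 39 exon blocks) is the maintenance methyltransferase. It was counted at 120 and 177 CPM in veh, at 109.5 and 175 CPM at 2 h, and at 84.0 and 88.1 CPM at 12 h. Both 12 h libraries were below all others, and the spread between replicates was wide in veh and at 2 h and narrow at 12 h. Its log2FC was −0.06 ± 0.26 at 2 h (95% interval −0.68 to 0.56) and −0.79 ± 0.26 at 12 h (95% interval −1.41 to −0.16), and in edgeR the 12 h value passed the test by little (adjusted p = 0.0482). The call was lost in limma-voom (adjusted p = 0.0542) and when 1 of 3 libraries was left out: vehicle replicate 2 (log2FC = −0.48, adjusted p = 0.235), 12 h replicate 1 (−0.77, 0.186) or 12 h replicate 2 (−0.84, 0.160).

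The replicates of this pair stood apart in veh and at 2 h. Replicate 2 held 2.58 times as much Uhrf1 as replicate 1 in veh and 2.27 times as much at 2 h, but 0.798 times as much at 12 h. For Dnmt1 these ratios were 1.47, 1.60 and 1.05. Cell cycle genes moved in the same libraries. The summed level of 16 DNA replication and S phase genes was 625 and 1016 CPM in veh, 706 and 1160 CPM at 2 h, and 526 and 522 CPM at 12 h. That of 10 G2 and mitosis genes was 819 and 1765 CPM, 845 and 1718 CPM, and 38.6 and 43.7 CPM. At 12 h, 10 of 10 G2 and mitosis genes were lower with a median log2FC of −5.26, and 7 of 16 replication genes with a median of −0.82, where 21.5% of all genes were lower. Of these genes, 3 of the 10 and 3 of the 7 were under 2 CPM in both 12 h libraries and entered the test through the other groups. The part of cell cycle state in the Uhrf1 and Dnmt1 values was not tested.

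**Figure D2:**
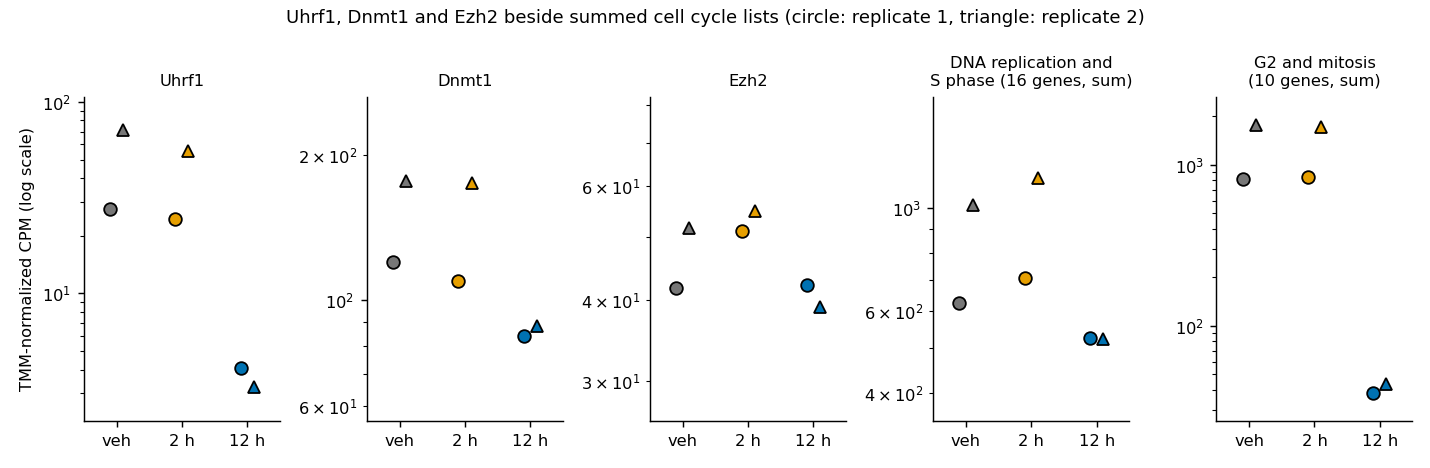
TMM-normalized CPM on a log axis, with its own range in each panel, of Uhrf1, Dnmt1, Ezh2 and the summed levels of 16 DNA replication and S phase genes and of 10 G2 and mitosis genes, in veh, TGFb2h and TGFb12h libraries (circle, replicate 1; triangle, replicate 2). Replicate 2 lies above replicate 1 in veh and at 2 h in every panel, and the G2 and mitosis sum lies at 38.6 and 43.7 CPM at 12 h.

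Within each library, reads of Uhrf1 were compared with those of Dnmt1. The ratio of Uhrf1 to Dnmt1 reads was 0.230 and 0.402 in veh, 0.225 and 0.318 at 2 h, and 0.0485 and 0.0370 at 12 h. The 12 h ratios lay below all others. The mean log2 ratio differed from vehicle by −2.84 at 12 h (two-sided exact permutation p = 0.333) and by −0.18 at 2 h (exact p = 0.667), and 2 libraries against 2 cannot give a p below 0.333.

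The genes whose profile over the 6 libraries was most like that of Uhrf1 were Rad51ap1 (root mean square difference 0.08 on the centred log2 scale, r = 0.999), Polq (0.12, r = 0.998) and Arhgef39 (0.12, r = 0.999), all of which share these libraries, so that no p is given. Rad51ap1 and Polq act in DNA break repair. Rad51ap1 was at 3.83 and 8.35 CPM in veh, 2.99 and 7.27 CPM at 2 h, and 0.305 and 0.206 CPM at 12 h. Their 12 h log2FC of −4.52 (Rad51ap1), −4.15 (Polq) and −4.10 (Arhgef39) follow from the choice of profile and are a description.

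The promoters of the maintenance pair and of the PRC2 genes Ezh2 and Suz12 are shown because they share letters that E2F factors, regulators of replication genes, are known to bind. RefSeq windows on GRCm38.p6 run from 250 bases before to 50 bases after an annotated start, and the 10 genes have 15 of them. TTTGGCGC, TTTCCCGC, TTTGCCGC or TTTCGCGC was found on either strand in 1 window of each of these 4 genes and in no window of the other 6. Matches are in capitals, and every sequence is written 5′ to 3′ on the strand of its gene. None of these matches overlaps a match to the other motifs searched.
Uhrf1, annotated start 2, chr17:56304063-56304362, + strand: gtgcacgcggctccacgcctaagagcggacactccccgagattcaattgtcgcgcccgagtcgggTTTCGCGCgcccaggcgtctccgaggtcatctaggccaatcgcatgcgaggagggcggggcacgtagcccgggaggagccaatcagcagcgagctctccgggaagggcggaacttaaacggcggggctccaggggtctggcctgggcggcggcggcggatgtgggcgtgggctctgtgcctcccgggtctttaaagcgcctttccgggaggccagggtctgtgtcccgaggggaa
Dnmt1, annotated start 3, chr9:20952574-20952873, − strand: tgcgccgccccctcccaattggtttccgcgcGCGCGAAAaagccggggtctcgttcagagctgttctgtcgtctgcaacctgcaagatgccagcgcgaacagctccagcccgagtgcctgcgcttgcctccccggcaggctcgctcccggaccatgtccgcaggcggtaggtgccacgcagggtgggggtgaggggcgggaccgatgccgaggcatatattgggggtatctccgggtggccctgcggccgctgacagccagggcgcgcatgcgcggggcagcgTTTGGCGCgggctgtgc
Ezh2, chr6:47594981-47595280, − strand: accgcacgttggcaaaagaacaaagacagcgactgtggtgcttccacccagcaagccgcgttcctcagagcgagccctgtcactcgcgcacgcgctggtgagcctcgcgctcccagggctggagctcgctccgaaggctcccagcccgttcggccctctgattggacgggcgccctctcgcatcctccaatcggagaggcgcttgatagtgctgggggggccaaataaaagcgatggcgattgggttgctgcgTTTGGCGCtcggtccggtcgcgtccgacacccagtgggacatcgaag
Suz12, chr11:79992856-79993155, + strand: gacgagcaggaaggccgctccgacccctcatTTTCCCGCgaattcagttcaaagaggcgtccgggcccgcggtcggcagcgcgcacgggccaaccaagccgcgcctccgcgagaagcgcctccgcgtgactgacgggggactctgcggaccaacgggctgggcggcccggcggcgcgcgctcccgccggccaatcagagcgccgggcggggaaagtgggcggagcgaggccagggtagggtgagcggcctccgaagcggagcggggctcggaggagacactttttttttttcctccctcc

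Counted from the annotated start, the first base of the match lay at −185 in Uhrf1, at −219 and 34 in Dnmt1, at 4 in Ezh2 and at −219 in Suz12. Of all 32851 mouse promoter windows of the same length, 2.26% held 1 of these words, as did 5.15% of the 8701 windows with at least 20 CpG, and the 4 windows shown hold 31 to 41 CpG. The AP-1 letters TGANTCA were in none of the 15 windows and in 7.81% of all, and the SMAD palindrome GTCTAGAC was in none and in 0.213% of all. CCAAT was found in 7 of the 15 windows (37.4% of all windows), and the cell cycle element letters TTTGAA or TTCGAA in 3 of the 15 (19.2%), both strands searched. A match describes the letters and shows no binding.

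Dnmt3a rose early and was still raised at 12 h. Dnmt3a (Entrez 13435, mm9 chr12:3806007-3914443, + strand, 32 exon blocks) encodes a de novo methyltransferase. Its level was 31.6 and 38.8 CPM in veh, 120.3 and 107 CPM at 2 h, and 86.7 and 85.1 CPM at 12 h. All 4 treated libraries lay above both vehicle libraries, and those of 12 h lay below those of 2 h. Dnmt3a was 3.23-fold higher at 2 h (log2FC = 1.69 ± 0.13, adjusted p = 0.000734, quasi-likelihood test of edgeR, Benjamini-Hochberg adjusted, n = 2 per group) and 2.44-fold higher at 12 h (1.29 ± 0.13, adjusted p = 0.000491). These calls were made under each of the 14 alternatives, with log2FC between 1.55 and 1.85 at 2 h and between 1.15 and 1.45 at 12 h. The difference of 12 h from 2 h, −0.40 ± 0.13, had an adjusted p of 0.0518, and passed under 8 of the 14 alternatives.

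No 50-base word, the length of a read, is shared between the annotated protein-coding transcripts of Dnmt3a and Dnmt3b or of any other pair of the 10 genes, and exons of other transcripts were not searched. The transcript Gm10485 overlaps 289 exonic bases of Dnmt3a on the opposite strand, and the counting used strand. The 3 genes with the profile most like that of Dnmt3a over the 6 libraries were Itprip (root mean square difference 0.06 on the centred log2 scale, r = 0.997), Ddi2 (0.11, r = 0.994) and Pxdc1 (0.11, r = 0.992), with no p for the same reason as above. Itprip encodes a protein that binds an inositol trisphosphate receptor and Ddi2 an aspartic protease. Itprip was at 32.0 and 36.1 CPM in veh, 114 and 97.1 CPM at 2 h, and 81.6 and 85.6 CPM at 12 h. Their log2FC of 1.63, 1.51 and 1.52 at 2 h and of 1.30, 1.19 and 1.22 at 12 h follow from the choice of profile and are a description.

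Dnmt3b was close to the limit of detection. Dnmt3b (Entrez 13436, mm9 chr2:153475186-153513466, + strand, 24 exon blocks), the other de novo enzyme, had 20 and 6 counts in veh, 16 and 13 counts at 2 h, and 33 and 47 counts at 12 h. In CPM these were 1.18 and 0.383, 0.810 and 0.656, and 1.44 and 2.41. Both 12 h libraries exceeded the other 4. The pooled ratio to vehicle was 2.37 at 12 h, with a 95% interval of 1.51 to 3.85, and 0.921 at 2 h (0.524 to 1.63), intervals that cover counting error alone. Fitted without a filter on low counts, the 12 h log2FC was 1.28 ± 0.52 and did not pass (adjusted p = 0.0952 in edgeR). Hence the change of Dnmt3b was not detectable at this depth beyond the spread of the replicates. Dnmt3a reads outnumbered those of Dnmt3b 26.2 and 93.8 times in veh, 144 and 157 times at 2 h, and 59.4 and 34.9 times at 12 h. The mean log2 ratio rested on the vehicle library chosen: its difference from vehicle at 12 h was −0.12 with both, −1.04 without vehicle replicate 1 and 0.80 without vehicle replicate 2.

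**Figure D3:**
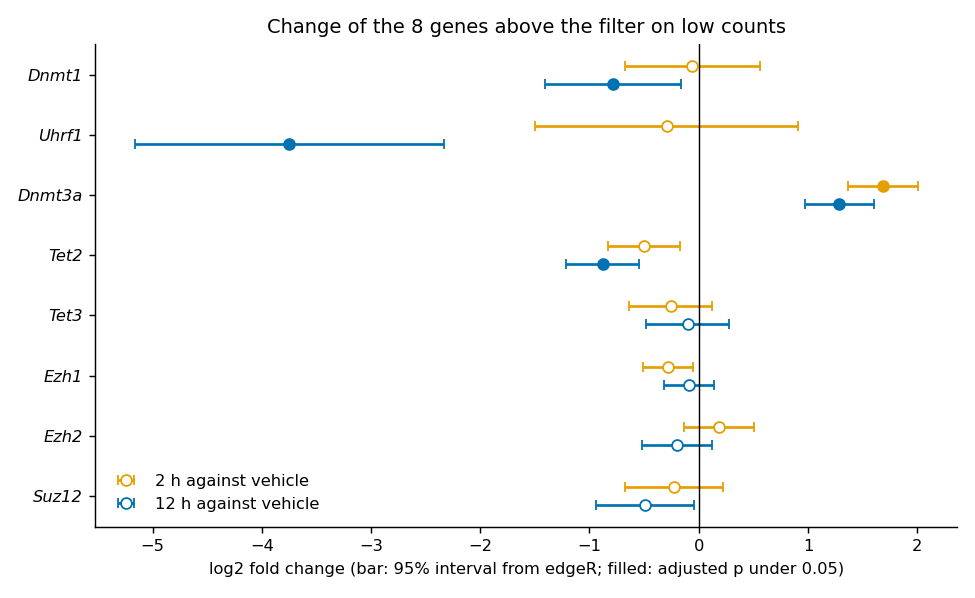
log2 fold change against vehicle (horizontal axis) of the 8 genes tested, at 2 h (orange) and 12 h (blue). Points are edgeR estimates, bars their 95% intervals, and filled points have an adjusted p under 0.05. Dnmt3a lies to the right at both times (1.69 and 1.29), and Uhrf1 lies farthest to the left at 12 h (−3.75).

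Of the oxidases, Tet2 fell. Tet2 (Entrez 214133, mm9 chr3:133126643-133207354, − strand, 12 exon blocks) had 76.5 and 76.4 CPM in veh, 47.2 and 60.7 CPM at 2 h, and 43.0 and 40.0 CPM at 12 h. The vehicle libraries were above all treated ones, and the 12 h libraries below those of 2 h. At 12 h it was 1.84-fold lower (log2FC = −0.88 ± 0.14, adjusted p = 0.00287 in edgeR), a call made under each of the 14 alternatives with log2FC from −1.01 to −0.85. At 2 h its log2FC of −0.50 ± 0.14 did not pass the test (adjusted p = 0.0573). It passed under 4 of the 14 alternatives, among them DESeq2 (adjusted p = 0.0187), total-count scaling (0.0374) and the fit in which 2 h replicate 2 was left out (log2FC = −0.70, adjusted p = 0.0145).

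Tet3 (Entrez 194388, mm9 chr6:83312367-83391672, − strand, 12 exon blocks) was at 43.8 and 41.0 CPM in veh, 32.4 and 38.7 CPM at 2 h, and 44.4 and 34.7 CPM at 12 h. The 12 h libraries lay on both sides of the vehicle libraries. Its log2FC was −0.26 (95% interval −0.64 to 0.13) at 2 h and −0.10 (−0.48 to 0.28) at 12 h, and neither passed. The ratio of Tet3 to Tet2 reads was 0.573 and 0.537 in veh, 0.686 and 0.638 at 2 h, and 1.03 and 0.867 at 12 h. This ratio was higher in each later group without overlap, with a mean log2 difference from vehicle of 0.25 at 2 h and 0.77 at 12 h (two-sided exact permutation p = 0.333 for both, the smallest the design allows).

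Tet1 (Entrez 52463, mm9 chr10:62267318-62361866, − strand, 13 exon blocks) had 4 and 4 counts in veh, 4 and 3 at 2 h, and 6 and 1 at 12 h, at most 0.262 CPM in any library. The pooled ratio to vehicle was 0.722 at 2 h (95% interval 0.223 to 2.28) and 0.674 at 12 h (0.208 to 2.13), counting error alone. No difference was detectable at this depth. The reads of Tet1 were at most 0.00659 times those of Tet2 in any library.

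None of the 3 PRC2 genes Ezh2, Ezh1 and Suz12 passed the test at either time. Ezh2 (Entrez 14056, mm9 chr6:47480273-47545340, − strand, 20 exon blocks), a catalytic subunit, was at 41.7 and 51.8 CPM in veh, 51.2 and 55.0 CPM at 2 h, and 42.3 and 39.0 CPM at 12 h. Its libraries overlapped those of vehicle at both times. The log2FC was 0.18 (95% interval −0.14 to 0.51) at 2 h and −0.20 (−0.52 to 0.12) at 12 h, with adjusted p of 0.411 and 0.275 in edgeR. The other catalytic subunit, Ezh1 (Entrez 14055, mm9 chr11:101052429-101087777, − strand, 21 exon blocks), had 67.8 and 64.5 CPM in veh, 52.9 and 56.1 CPM at 2 h, and 62.0 and 62.2 CPM at 12 h. The treated libraries all lay below those of vehicle, and those of 2 h were the lowest. Its log2FC of −0.28 (95% interval −0.51 to −0.05) at 2 h did not pass after adjustment (adjusted p = 0.106), although it did with total-count scaling (log2FC = −0.39, adjusted p = 0.0442), and at 12 h it was −0.09 (−0.32 to 0.14).

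Suz12 (Entrez 52615, mm9 chr11:79806608-79847625, + strand, 17 exon blocks), the scaffold subunit, had 117 and 111 CPM in veh, 116 and 78.6 CPM at 2 h, and 86.5 and 75.1 CPM at 12 h. Both 12 h libraries lay below those of vehicle, and the 2 h libraries were far apart. At 12 h its log2FC was −0.49 ± 0.19 (95% interval −0.94 to −0.04) with an adjusted p of 0.0743, and it passed under 6 of the 14 alternatives, among them DESeq2 (adjusted p = 0.0417), total-count scaling (0.0270) and the fits without 2 h replicate 1 (0.00757) or without 2 h replicate 2 (0.00774). At 2 h the value of −0.23 depended on the library: it was −0.55 without 2 h replicate 1 (adjusted p = 0.0334) and 0.02 without 2 h replicate 2. The transcript Gm16706 overlaps 877 exonic bases of Suz12 on the opposite strand.

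The ratio of Ezh2 to Ezh1 reads was 0.615 and 0.802 in veh, 0.968 and 0.981 at 2 h, and 0.682 and 0.628 at 12 h. The 2 h ratios lay above all others. The mean log2 ratio differed from vehicle by 0.47 at 2 h (two-sided exact permutation p = 0.333) and by −0.10 at 12 h (exact p = 1). The 12 h difference changed sign without vehicle replicate 2, at 0.09.

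**Figure D4:**
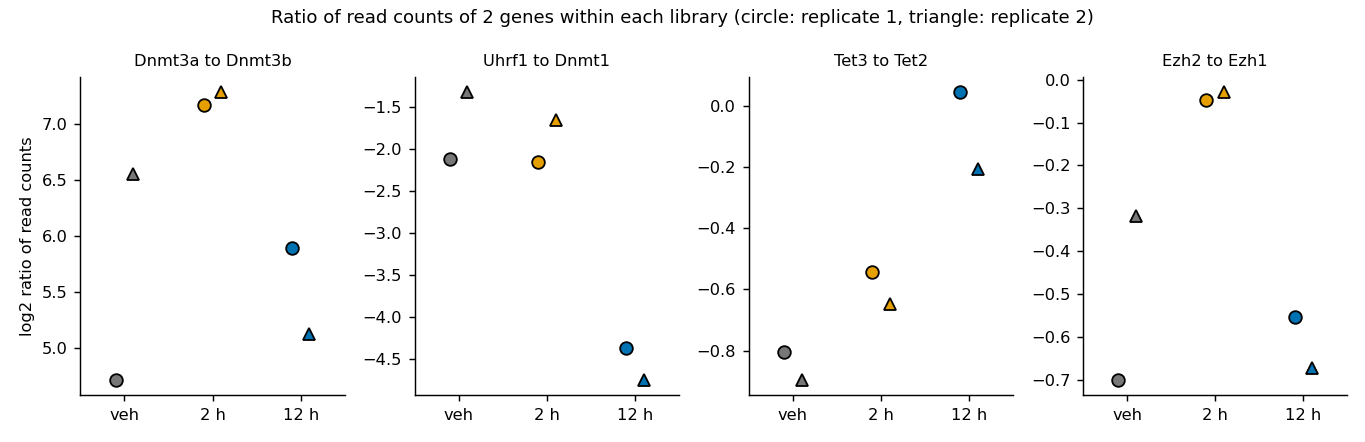
log2 ratio of the read counts of 2 genes within each library (vertical axis, with its own range in each panel), for Dnmt3a to Dnmt3b, Uhrf1 to Dnmt1, Tet3 to Tet2 and Ezh2 to Ezh1, in veh, TGFb2h and TGFb12h libraries (circle, replicate 1; triangle, replicate 2). The Uhrf1 to Dnmt1 ratio lies lowest at 12 h (−4.37 and −4.76), and the Tet3 to Tet2 ratio lies highest at 12 h (0.05 and −0.21).

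To compare levels between genes, CPM were divided by the length of the merged GENCODE exons (CPM per kb). Reads had been counted on UCSC exons, so that the order can depend on the gene models. In vehicle the order was Dnmt1 (28.2 CPM per kb), Suz12 (23.0), Uhrf1 (11.6), Ezh1 (8.89), Tet2 (8.31), Ezh2 (7.54), Tet3 (3.83), Dnmt3a (2.12), Dnmt3b (0.153) and Tet1 (0.0167). The libraries of Dnmt1 and Suz12 overlapped, as did those of Tet2 and Ezh2, and the range of Uhrf1 (6.47 to 16.7 CPM per kb) reached over Ezh1, Tet2 and Ezh2. At 2 h Dnmt3a stood at 6.82 CPM per kb between Ezh1 (7.32) and Tet2 (5.86), and its libraries (6.41 to 7.23) overlapped those of both. At 12 h the order was Dnmt1 and Suz12 (both 16.3 CPM per kb), Ezh1 (8.35), Ezh2 (6.56), Dnmt3a (5.16), Tet2 (4.51), Tet3 (3.57), Uhrf1 (0.856), Dnmt3b (0.377) and Tet1 (0.0106), and Dnmt1 and Suz12 alone overlapped. In vehicle Uhrf1 was thus not told apart from the 3 genes below it, while at 12 h it lay below Tet3, and Dnmt3a went from below Tet3 to above Tet2. The merged exons of Dnmt3a span 16.6 kb of several annotated transcripts, which lowers its level per kb.

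Of 9 core and accessory PRC2 genes besides Ezh1, Ezh2 and Suz12, 8 were tested. At 2 h none passed in edgeR, DESeq2 or limma-voom, against 9.91% of all genes higher and 5.25% lower in edgeR, and 1 (Aebp2) had an unadjusted p under 0.05. At 12 h, 2 were higher, against 21.8% of all genes, and none was lower, against 21.5% (1 at an unadjusted p under 0.05, Phf1, and 0 with DESeq2 or limma-voom), with a median log2FC of 0.05. These were Jarid2 and Aebp2, which help to bring PRC2 to its targets. Jarid2 was at 25.2 and 24.8 CPM in veh, 23.5 and 20.4 CPM at 2 h, and 40.7 and 40.1 CPM at 12 h (log2FC at 12 h 0.69 ± 0.12, adjusted p = 0.00453). Aebp2 was at 81.7 and 92.4 CPM, 128 and 104 CPM, and 176 and 136 CPM (0.84 ± 0.17, adjusted p = 0.00694), a call lost without 12 h replicate 1 (0.63, adjusted p = 0.0591). The WD-repeat subunits Eed, Rbbp4 and Rbbp7 did not pass at either time.

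Of 22 subunits of PRC1, which ubiquitylates histone H2A and compacts chromatin, 4 were higher at 2 h, against 9.91% of all genes, and 2 lower, against 5.25%. At 12 h, 4 were higher, against 21.8%, and 5 lower, against 21.5%. With each library left out in turn these counts were 1 to 3 and 0 to 3 at 2 h, and 1 to 5 and 1 to 5 at 12 h, the lowest of each without vehicle replicate 1 among others. The chromodomain genes, whose products read the PRC2 mark, were among both. Cbx7 was at 15.7 and 11.1 CPM in veh, 5.57 and 4.95 CPM at 2 h, and 4.80 and 5.19 CPM at 12 h, and fell at both times (log2FC = −1.35 ± 0.23 and −1.42 ± 0.23, adjusted p = 0.0105 and 0.00286 in edgeR). The 2 h call of Cbx7 was lost without vehicle replicate 1 (log2FC = −1.08, adjusted p = 0.0683). Cbx2 was at 10.6 and 17.9 CPM in veh, 25.4 and 36.6 CPM at 2 h, and 25.3 and 26.3 CPM at 12 h, and rose at both (1.12 ± 0.28 and 0.86 ± 0.28, adjusted p = 0.0415 and 0.0462). The calls of Cbx2 were lost at both times with total-count scaling (log2FC = 1.01 and 0.72, adjusted p = 0.0605 and 0.0875), without vehicle replicate 1 (log2FC = 0.79 and 0.52), without 12 h replicate 1 (1.11 and 0.87) and without 12 h replicate 2 (1.11 and 0.81), and at 2 h without 2 h replicate 2 (0.83) or with only the groups compared (1.11).

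Bcor, a corepressor of a variant PRC1, was at 72.03 and 59.2 CPM in veh, 129 and 94.6 CPM at 2 h, and 37.8 and 36.6 CPM at 12 h. The 3 groups did not overlap. It was higher at 2 h (log2FC = 0.77 ± 0.17, adjusted p = 0.0300) and lower at 12 h (−0.82 ± 0.18, adjusted p = 0.00974), and fell between both times by 1.59 ± 0.18 on the log2 scale (adjusted p = 0.00122). The 2 h call was lost in 6 alternatives, 5 of them leaving out a library other than 2 h replicate 2 (log2FC 0.51 to 0.92), and the 12 h call without vehicle replicate 1 (−0.67) or without 12 h replicate 1 (−0.86) or 2 (−0.81). Phc2 at 2 h and Pcgf3 at 12 h were called higher under all 14 alternatives. The other calls were lost under some: higher for Pcgf5 at 2 h (kept under 6 of 14) and 12 h (9) and for Phc2 at 12 h (11), lower for Kdm2b at 2 h (7) and for Cbx8 (10) and Phc3 (11) at 12 h.

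Among 6 enzymes that remove the marks of PRC2 or PRC1, edgeR called 1 higher at 2 h, against 9.91% of all genes, and at 12 h, against 21.8%. None was called lower, against 5.25% at 2 h and 21.5% at 12 h. Kdm6b, a demethylase of the PRC2 mark, was at 10.9 and 13.1 CPM in veh, 24.0 and 36.7 CPM at 2 h, and 38.4 and 31.1 CPM at 12 h. All treated libraries were above those of vehicle. It rose at 2 h (log2FC = 1.34 ± 0.24, adjusted p = 0.0135) and at 12 h (1.53 ± 0.24, adjusted p = 0.00270), the former call being lost without vehicle replicate 1 (1.21, adjusted p = 0.0894) or 2 (1.48, adjusted p = 0.0510). Its paralog Kdm6a, at 107 to 143 CPM, had a log2FC of −0.34 at 2 h (unadjusted p = 0.0142, adjusted p = 0.0749 in edgeR) and of −0.09 at 12 h. The 2 h value passed under 3 of the 14 alternatives, among them DESeq2 (adjusted p = 0.0304) and total-count scaling (0.0276).

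**Figure D5:**
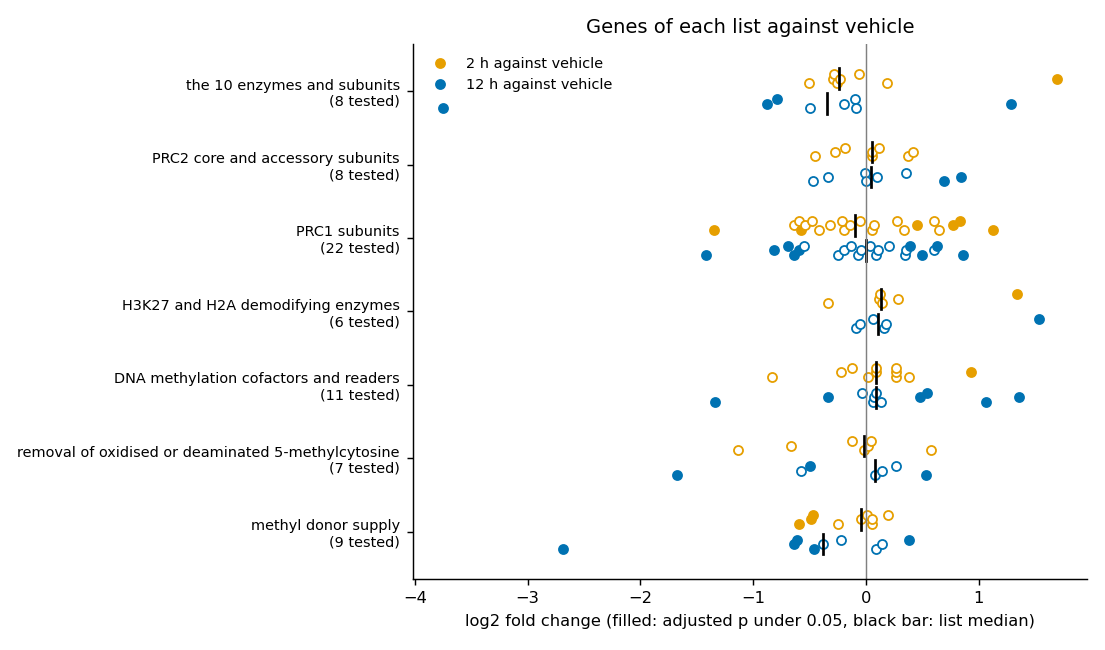
log2 fold change against vehicle (horizontal axis) of each gene tested in 7 lists of DNA methylation and Polycomb genes, at 2 h (orange) and 12 h (blue). Filled points have an adjusted p under 0.05 and black bars are list medians. Dnmt3a is the point at 1.69 and Uhrf1 the point at −3.75 in the first list, and Shmt1 is the point at −2.69 in the last.

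Of 12 cofactors and readers of DNA methylation, 11 were tested, while Dnmt3l, the cofactor of the de novo enzymes, had no count in any library. For 1 library taken alone, 0 counts leave an expected count of up to 3 possible at 95% confidence. At 2 h, 1 was higher, against 9.91% of all genes, and none lower, against 5.25% (1 at an unadjusted p under 0.05, Hells, and 0 with DESeq2). At 12 h, 4 were higher, against 21.8%, and 2 lower, against 21.5%. With single libraries left out the 12 h counts were 1 to 4 and 0 to 2, with 1 higher and none lower without either 12 h library. Zbtb38, a zinc finger reader of methylated CpG, rose at both times, from 133 and 122 CPM in veh to 261 and 226 CPM at 2 h and 248.9 and 285 CPM at 12 h (log2FC = 0.93 ± 0.13 and 1.06 ± 0.13, adjusted p = 0.00473 and 0.000855 in edgeR). Hells and Cdca7 encode the remodelling ATPase and its partner that give Dnmt1 and Dnmt3 enzymes access to DNA. Hells was at 30.9 and 65.3 CPM in veh, 25.4 and 28.7 CPM at 2 h, and 21.8 and 16.3 CPM at 12 h, and fell at 12 h (log2FC = −1.33 ± 0.34, adjusted p = 0.0197). Cdca7 was at 4.59 and 8.80 CPM, 5.06 and 8.43 CPM, and 14.9 and 19.3 CPM, and rose at 12 h (1.35 ± 0.37, adjusted p = 0.0247). Both 12 h calls were lost when either 12 h library was left out (log2FC −1.58 and −1.16 for Hells, 1.51 and 1.14 for Cdca7), that of Hells also without vehicle replicate 2 (−0.70) and that of Cdca7 without vehicle replicate 1 (0.95). Trim28 and Zbtb4 were also higher at 12 h (kept under 9 and 11 of the 14 alternatives), and Uhrf2, the paralog of Uhrf1, was lower (9).

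Of 8 genes for the removal of oxidised or deaminated 5-methylcytosine, 7 were tested. At 2 h none passed in edgeR, DESeq2 or limma-voom, against 9.91% of all genes higher and 5.25% lower in edgeR. Of the 7, 2 had an unadjusted p under 0.05 (Ung and Mbd4). At 12 h, 1 was higher (Apex1), against 21.8% of all genes, and 2 were lower (Ung and Xrcc1), against 21.5%, each call kept under 11 of the 14 alternatives. Of the 2, Ung was under 2 CPM in both 12 h libraries and entered the test through the other groups, so that the count is a description. None of the 7 was called lower without vehicle replicate 2 or without either 12 h library. Tdg, the glycosylase that excises the products of the Tet enzymes, was at 2.12 to 4.04 CPM and did not pass at either time. Ung, which removes uracil, was at 2.95 and 4.53 CPM in veh, 1.01 and 2.37 CPM at 2 h, and 1.44 and 0.873 CPM at 12 h. Since Ung lay under the minimum CPM at 12 h, its log2FC of −1.67 ± 0.49 (adjusted p = 0.0313 in edgeR) is a description. The call of Ung was lost without vehicle replicate 2 (−1.33) and without 12 h replicate 1 (−2.10) or 2 (−1.39).

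Of 9 genes of methyl donor supply, which feed S-adenosylmethionine to these methyltransferases, 3 were lower at 2 h, against 5.25% of all genes, and at 12 h 4 were lower, against 21.5%, and 1 higher, against 21.8%, with a median log2FC of −0.39. With single libraries left out, the number lower was 0 to 2 at 2 h, with 0 without either vehicle or either 12 h library, and 1 to 4 at 12 h. Shmt1, the cytosolic enzyme that loads one-carbon units from serine onto folate, was at 92.1 and 100.1 CPM in veh, 68.6 and 70.5 CPM at 2 h, and 14.3 and 15.6 CPM at 12 h. The 3 groups did not overlap. It fell at 12 h (log2FC = −2.69 ± 0.11, adjusted p = 3.43e-05) under each of the 14 alternatives. At 2 h its log2FC was −0.47 ± 0.10 (adjusted p = 0.0276 in edgeR). This call was lost without vehicle replicate 1 (−0.53) or 2 (−0.41) and without 2 h replicate 2 (−0.49). It was also lost without either 12 h library or with only the groups compared (−0.48 for each). Mthfd1 and Mat2b were also lower at 12 h (kept under 12 and 11 of the 14 alternatives). Mtrr was called lower at 2 h and higher at 12 h, calls kept under 8 and 5 of the 14, the latter lost with DESeq2.

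E2F factors and the pocket proteins that bind them were also counted. Of 10 genes, 2 were lower at 2 h, against 5.25% of all genes, with a median log2FC of −0.40. At 12 h, 5 were lower, against 21.5%, and 2 higher, against 21.8%, with a median of −0.74. With single libraries left out, the number lower was 1 to 3 at 2 h, with 1 in each fit but that without 2 h replicate 1, and 3 to 6 at 12 h, with 3 without vehicle replicate 2 or 12 h replicate 1. The number higher at 12 h was then 0 to 2, with 0 without 12 h replicate 2. The 5 were E2f1, E2f2, E2f7, E2f8 and Rbl1, and the 2 higher were E2f3 and E2f4. Of the 5, E2f2, E2f7 and E2f8 were under 2 CPM in both 12 h libraries and entered the test through the other groups, so that their count is a description. Their part in the values of Uhrf1, Dnmt1, Ezh2 and Suz12 was not tested.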

How the data were processed

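Stranded total RNA of NMuMG cells was sequenced as single reads. The authors filtered the reads, mapped them to mm9 with subjunc of Rsubread, kept those with a unique position, took out duplicates with SAMtools 0.1.19 and counted them by strand on the exons of each UCSC gene with featureCounts. What the authors deposited is a table of raw counts of 21240 genes without normalization, and every column belongs to 1 of the 6 libraries. Removal of duplicates can lower the counts of abundant genes. Groups came from the submitters' labels.

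Counts were tested in R 4.3.3 by edgeR 4.0.16 (TMM factors, quasi-likelihood, 3 groups in 1 fit, genes reaching 2 CPM in 2 or more libraries, Benjamini-Hochberg adjustment per comparison, called at 0.05, two-sided). The SE is the absolute log2FC divided by the square root of F. A pseudocount of 0.25 CPM entered profile comparisons and 0.5 counts entered ratios. In counts simulated for 2 h against vehicle over 11080 genes, 94 of 100 genes with a planted log2FC of 1.5 were recovered, and 59 of 100 with one of 1. The planted genes were drawn from those above a minimum mean count, so that recovery at low counts was not tested. Alternatives used limma 3.58.1 (voom), DESeq2 1.42.0, other scalings and filters, only the groups compared, a replicate block, and each library left out. A call is one at an adjusted p under 0.05.

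Gene positions came from GENCODE on NCBIM37 (mm9) and promoters from RefSeq on GRCm38.p6, and no coordinates were converted. The 10 genes and the pathway lists were chosen with earlier results of these data known. Beside these 10, genes of the 6 Polycomb, DNA methylation and methyl donor lists were given values where they were called against vehicle with an absolute log2FC above 1, and neighbors are the 3 nearest profiles of Dnmt3a and Uhrf1. Jarid2, Aebp2, Bcor, Kdm6a and list genes named without a value were chosen after their values were seen. Some list genes that enter the counts are not reported here by name.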

Additional observations from a re-analysis of the deposited data

Results flagged for a closer look

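The effects at 2 h and at 12 h against vehicle share their vehicle libraries, and their difference is the comparison of 12 h with 2 h. It passed edgeR's quasi-likelihood test (Benjamini-Hochberg adjustment) for Uhrf1, with a log2FC of −3.45 ± 0.59 (SE) (adjusted p = 0.00564), which was lower in both 12 h libraries than in both 2 h libraries. Its neighbors were chosen for the same profile, so that their values of −4.28 (Rad51ap1), −3.83 (Polq) and −3.67 (Arhgef39) restate that choice. Among the other named genes it passed for Shmt1 (log2FC −2.22, adjusted p = 0.000135), Mtrr (0.97, 0.00205), Mthfd1 (−0.62, 0.0123), Bcor (−1.59, 0.00122), Phc2 (−0.34, 0.0409), Jarid2 (0.88, 0.00275), Cdca7 (1.34, 0.0310), Apex1 (0.49, 0.0259) and Xrcc1 (−0.51, 0.0232). It also passed for the E2F factors E2f2 (−2.30, 0.00577), E2f7 (−4.65, 0.00219) and E2f8 (−4.06, 0.00265) and for the keratins Krt8 (0.95, 0.00133), Krt18 (1.32, 0.0009) and Krt19 (−1.92, 0.000266). The calls of Shmt1, Mtrr, Bcor, Jarid2 and the 3 keratins were kept under all 14 alternatives, and that of Phc2 under 7 (−0.27 to −0.35 where lost). The calls of Uhrf1 and Mthfd1 were lost without 12 h replicate 1 or 2 (log2FC −3.64 and −3.31 for Uhrf1, −0.56 and −0.70 for Mthfd1). Those of Apex1 and Xrcc1 were lost without 12 h replicate 1 or 2 (0.58 and 0.38 for Apex1, −0.57 and −0.47 for Xrcc1) or 2 h replicate 2 (0.37 and −0.45), and that of Cdca7 without 12 h replicate 1 or 2 (1.51 and 1.14) or 2 h replicate 1 (1.02). Those of E2f7 and E2f8 were kept whichever library was left out, and that of E2f2 was lost without 12 h replicate 2 (−2.18). These 3 E2F genes were under 2 CPM in both 12 h libraries and entered the test through the other groups, so that their values are a description. With at least 10 counts in every library they were not tested. With 2 libraries per group no library could be tested as standing apart.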

How the results depend on the processing

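The calls of Dnmt3a at both times, and of Uhrf1 and Tet2 at 12 h, kept their direction and passed under all 14 alternatives. The number of the 8 genes lower at 2 h, 0 in the report, was 1 with DESeq2, 2 with total counts and 0 to 1 with each library left out. Lower from 2 h to 12 h, 1 in the report, was 2 with limma-voom, 3 with DESeq2, 2 with total counts, 2 without a filter, 2 with only the groups compared and 0 to 3 with each library left out, the 0 being without either 12 h library. With the replicate block, 1 was lower at 2 h (Tet2, adjusted p = 0.0149) and 5 from 2 h to 12 h, and Suz12 at 12 h passed (adjusted p = 0.00670). The labels name no shared batch, and whether same-numbered samples share one was not tested. Each comparison has 2 same-numbered pairs. Deviations of same-numbered samples correlated at 0.708 (veh with 2 h), 0.263 (veh with 12 h) and 0.392 (2 h with 12 h). With the block 1813 genes were higher and 1409 lower at 2 h, against 1098 and 582.

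With each library left out in turn, these uncalled values crossed 0, and the cause was not tested. At 2 h they ran from −0.44 to 0.25 for Dnmt1, −1.0 to 0.54 for Uhrf1, −0.55 to 0.024 for Suz12, −0.40 to 0.55 for Cdca7 (−0.095 with total counts), −1.02 to 0.42 for Rad51ap1, −1.23 to 0.39 for Polq and −1.06 to 0.27 for Arhgef39. At 12 h they ran from −0.31 to 0.051 for Tet3. From 2 h to 12 h they ran from −0.043 to 0.31 for Tet3, −0.52 to 0.043 for Suz12, −0.16 to 0.014 for Cbx7, −0.51 to 0.023 for Cbx2, −0.078 to 0.53 for Kdm6b and −1.02 to 0.20 for Ung. Among the list counts that moved, PRC1 genes lower at 2 h numbered 7 and S phase genes lower at 12 h 11 with the block, PRC1 genes higher at 12 h 2 with total counts, E2F genes lower at 12 h 2 with at least 10 counts in every library (E2f2, E2f7 and E2f8 were then not tested), and methyl donor genes higher at 12 h 0 with DESeq2, its size factors, total counts, at least 10 counts or no filter. Leaving out a library assumes that the lone sample of a group varies like the others. At this depth changes of Tet1 within its counting interval could not be seen, and for Dnmt3b at 12 h the limit was the spread between replicates.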
